A study of Mus musculus with 8 samples.

Results

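The cytosolic ribosomal protein genes encode the proteins of the ribosome that translates nuclear mRNA in the cytosol. They were taken from the deposited table as the rows whose gene symbol is Rpl or Rps followed by a number, with up to 1 letter and 1 further digit, or is Rplp0, Rplp1 or Rplp2, leaving out symbols that contain -ps and the Rps6k kinases. This gave 85 genes of the 30445 in the table. All 85 passed the filter on low counts, as did 17787 genes in all, and the lowest count of any of them in any library was 9. GENCODE release M21 annotates 80 of them as protein coding and 5 (Rps3a2, Rps3a3, Rps4l, Rpl6l and Rpl32l) as processed pseudogenes, which are copies of a spliced mRNA inserted elsewhere in the genome. The set holds 43 genes of the large subunit, 30 of the small subunit, the 3 stalk genes, 4 paralogues (Rpl3l, Rpl7l1, Rpl22l1 and Rps27l) and the 5 pseudogenes.

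Poly(A) RNA of hearts from C57 mice was profiled 8 weeks after transverse aortic constriction (TAC), a surgical narrowing of the aorta that puts the left ventricle under pressure load. Hearts labelled Mertk knockdown gave 4 libraries and wildtype hearts gave 4, and every animal had undergone the constriction. How the knockdown was made, in which cells, the age and sex of the mice and whether each replicate is a separate animal are not given in the labels, so p-values measure only the spread between these libraries. The title places MERTK, a receptor with which macrophages take up dying cells, and type I interferon at the centre of the study, and no question about ribosomes is stated.

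Libraries held 63378755 to 68762911 counts in the Mertk knockdown group and 59287621 to 71571173 counts in the wildtype group. Mertk averaged 11.9 ± 0.951 CPM (counts relative to the TMM-adjusted size of each library) in the libraries labelled Mertk knockdown and 11.1 ± 0.870 CPM in wildtype (SD, n = 4 each), a log2 fold change of 0.10 with an edgeR adjusted p of 0.766, so the targeted transcript was not lower in the libraries that carry the label. The 8 hepatocyte markers summed to 122 to 205 CPM in the libraries labelled Mertk knockdown and to 197 CPM in wildtype replicate 1, against 3.08 to 13.1 CPM in wildtype replicates 2 to 4. Results that turn on wildtype replicate 1 are therefore given with and without it, and within the 5 libraries that carry hepatocyte transcripts. The 8 cardiomyocyte markers summed to 46240 to 51900 CPM in the libraries labelled Mertk knockdown and 32930 to 43390 CPM in wildtype, and none was listed at 0. In bulk tissue, fewer cells of a type and less RNA per cell cannot be told apart.

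Ribosomal proteins are made in amounts matched to ribosomal RNA, and their genes are controlled largely as a block. Their mRNAs usually begin with a C followed by a run of pyrimidines, the 5′ terminal oligopyrimidine (TOP) motif, through which mTORC1 and the RNA-binding protein LARP1 control their translation. Heart muscle adds ribosomes when it grows under load, and it carries a muscle form of the large subunit protein RPL3, named RPL3L. Levels of mRNA, which is what was measured here, do not show how much of it is translated.

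The start sites of the members were read first because the pyrimidine run is the feature by which these mRNAs are known. RefSeq windows (build GRCm38.p6, 250 bases before to 50 after each start) were matched by symbol for 61 of the 85 genes, taking the window nearest the deposited gene's 5′ end. The lines below give 70 bases each, 50 before and 20 from the start onward, 5′ to 3′, with the longest run of C and T from 25 bases before the start onward in capitals. The first 5 belong to the members with the lowest fold changes that had a window. Rpl7a shows the longest run among those printed, Rplp0 is the member with the highest FPKM and Rpl3l is the muscle paralogue.
Rpl38: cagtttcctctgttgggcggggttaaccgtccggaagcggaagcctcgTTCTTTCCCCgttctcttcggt
Rps27: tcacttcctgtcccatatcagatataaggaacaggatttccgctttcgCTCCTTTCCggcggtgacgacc
Rps12: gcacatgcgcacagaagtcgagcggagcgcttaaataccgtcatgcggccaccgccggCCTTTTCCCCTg
Rpl39: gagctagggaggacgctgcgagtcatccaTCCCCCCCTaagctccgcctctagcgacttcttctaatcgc
Rps28: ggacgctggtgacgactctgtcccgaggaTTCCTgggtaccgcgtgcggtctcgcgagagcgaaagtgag
Rpl7a: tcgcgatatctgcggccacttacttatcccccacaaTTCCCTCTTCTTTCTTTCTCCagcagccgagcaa
Rplp0: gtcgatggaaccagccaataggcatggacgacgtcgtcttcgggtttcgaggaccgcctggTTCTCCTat
Rpl3l: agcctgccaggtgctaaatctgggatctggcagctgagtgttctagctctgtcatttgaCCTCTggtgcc
The windows lie at chr11:114668530-114668599, plus strand for Rpl38, at chr3:90213629-90213698, minus strand for Rps27, at chr10:23787190-23787259, minus strand for Rps12, at chrX:37085203-37085272, minus strand for Rpl39 and at chr17:33824543-33824612, minus strand for Rps28. Those of the other genes lie at chr2:26910757-26910826, plus strand for Rpl7a, at chr5:115559417-115559486, plus strand for Rplp0 and at chr17:24727776-24727845, plus strand for Rpl3l. The run was 21 bases long in Rpl7a and 11 in Rps12, against 5 in Rpl3l and 5 in Rps28. It spanned the RefSeq start in Rpl38, Rps27 and Rpl7a only. In Rpl39 and Rps28 it stood before the start, and in Rps12, Rplp0 and Rpl3l it began after it. Only the longest run is marked, and Rpl39 also has a shorter one, cttcttct, after its start. The RefSeq start of Rpl39 lay 180 bases from the deposited gene's 5′ end, and among all members with a window this distance reached 3553 bases, in Rps24.

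Within 25 bases on either side of the start, a run of at least 8 pyrimidines was present in 30 of 61 member windows (49.2%), against 19.0% of all 15675 windows of genes in the table. Read on the opposite strand, such a run was present in 8.20% of member windows and 19.9% of all windows. The letters CGGAAG, the core of ETS-family sites, were found on either strand in 40 of the 61 full windows of 300 bases (65.6%), against 24.6% of all windows. AAGATGG, the core of YY1 sites, was found in 9 (14.8%), against 6.51%. These matches describe the letters in the windows and do not show binding.

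No ribosomal protein gene was called at an edgeR adjusted p under 0.05, in either direction, against a background of 0.647% of all tested genes (115 of 17787: 0.275% higher and 0.371% lower). The estimates lay mostly below 0: 77 of the 85 log2 fold changes (90.6%) were negative, against 50.1% of all tested genes, with a median of -0.15 for the members and -0.00071 for all genes. The shift was small. Of the 85 members, 59 lay within 0.25 of 0 on the log2 scale, the quartiles were -0.27 and -0.07, and the range ran from -0.67 for Rpl39 to 0.83 for Rps4l. The smallest adjusted p was 0.119, for Rpl39. Before adjustment, 12 members had p under 0.05 and a lower level (14.1%, background 6.32%) and 1 had a higher level (background 6.11%). DESeq2, which called 3.73% of its tested genes (1.65% higher and 2.07% lower), called Rpl39 lower (adjusted p 0.0121) and Rps4l higher (adjusted p 0.00864), and limma on log2 FPKM called no member. Only 2 members had groups that did not overlap in CPM (2.35%, background 8.07%): Rps4l, higher in every library labelled Mertk knockdown (background 4.18%), and Rpl30, lower in every such library (background 3.90%).

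**Figure D1:**
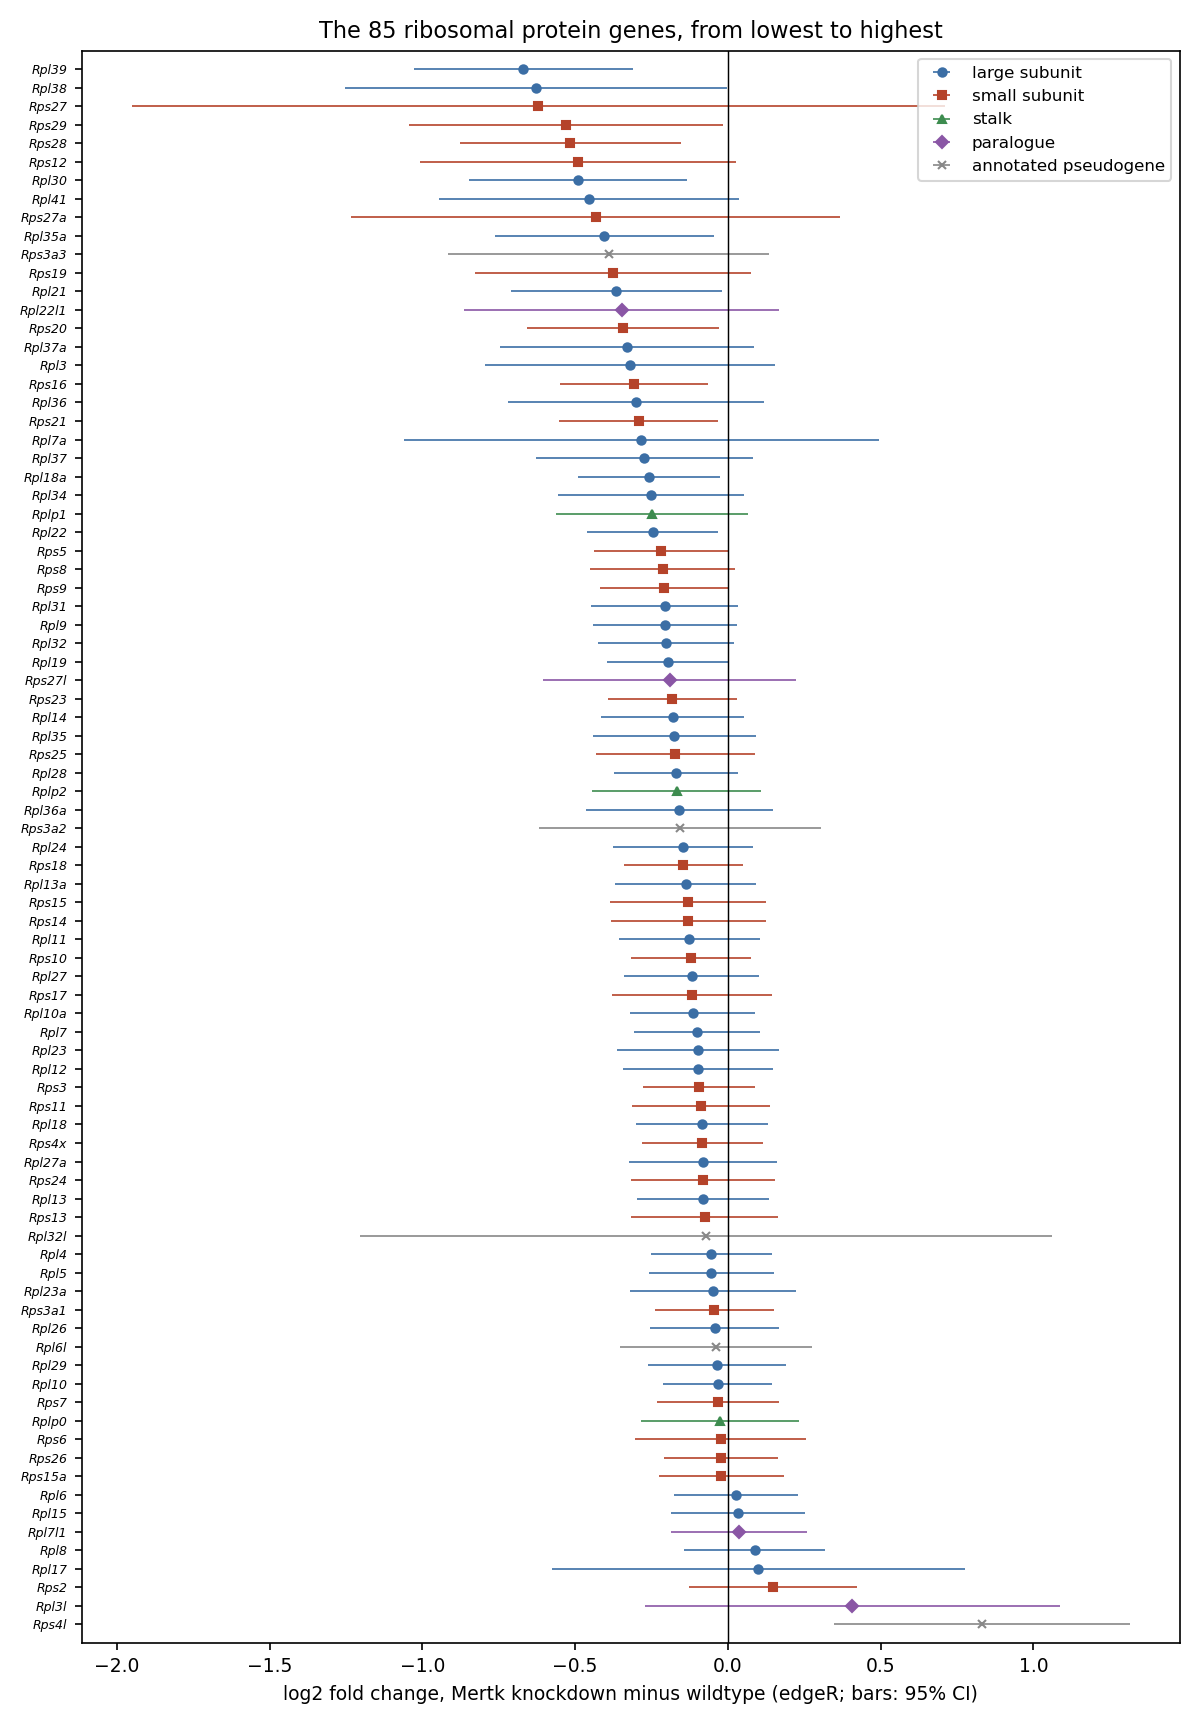
Log2 fold change (Mertk knockdown minus wildtype, edgeR) of each of the 85 ribosomal protein genes on the x axis, with 95% confidence intervals as bars, from the lowest at the top to the highest at the bottom; colours and symbols give the class. Of the 85 points, 77 lie left of 0, and Rps4l stands apart on the right at 0.83.

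The members kept to similar values within a group: the median SD of log2 CPM within groups was 0.154 for the members, against 0.277 for all tested genes. The tested genes were not matched to the members in level, so the part of level in this difference was not tested. Rpl10, a large subunit protein that joins the subunit late in its assembly, varied least, with an SD of 0.0406. Rps27 varied most, with an SD of 1.02, followed by Rps27a at 0.618 and Rpl7a at 0.570. Summed over the 85 genes, the members took 0.777%, 0.791%, 0.925% and 0.823% of counts in replicates 1 to 4 labelled Mertk knockdown, and 0.831%, 0.948%, 0.900% and 0.934% in wildtype replicates 1 to 4. The difference in means was -0.0742 percentage points, about the size of the SD of 0.0668 in the libraries labelled Mertk knockdown and 0.0520 in wildtype (n = 4 each), and the groups overlapped, with replicate 3 labelled Mertk knockdown above wildtype replicates 1 and 3. Mitochondrial transcripts took 30.6% ± 1.16 of counts in the libraries labelled Mertk knockdown and 29.8% ± 2.45 in wildtype, and with them left out of the total the members took 1.20% ± 0.107 in the libraries labelled Mertk knockdown and 1.29% ± 0.0375 in wildtype.

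Among the large subunit genes, 39 of 43 had a log2 fold change below 0, with a median of -0.16. Rpl39, whose small protein lines the tunnel through which the growing chain leaves the ribosome, had 9.83, 8.71, 9.72 and 10.9 CPM in replicates 1 to 4 labelled Mertk knockdown, against 10.9, 18.8, 16.8 and 15.8 CPM in wildtype replicates 1 to 4. Wildtype replicate 1 sat at the top of the other group's range and the remaining wildtype libraries well above it. Its log2 fold change was -0.67 with an SE of 0.16 and an edgeR adjusted p of 0.119. Rpl38, linked in mice to the patterning of the axial skeleton, had 6.06, 8.97, 8.76 and 14.9 CPM in the libraries labelled Mertk knockdown, against 10.6, 17.7, 18.9 and 12.7 CPM in wildtype. Replicate 4 labelled Mertk knockdown lay above wildtype replicates 1 and 4, and the log2 fold change of -0.63 with an SE of 0.28 had an edgeR adjusted p of 0.399. Rpl30, a large subunit protein chosen here after its values were seen, had 39.6, 24.9, 31.0 and 37.0 CPM in the libraries labelled Mertk knockdown, against 40.2, 48.0, 56.8 and 41.2 CPM in wildtype. The gap between the groups was narrow, from 39.6 to 40.2 CPM, and the log2 fold change of -0.49 with an SE of 0.16 had an edgeR adjusted p of 0.239. Rpl8, which sits near the catalytic centre of the large subunit, averaged 211 ± 23.8 CPM in the libraries labelled Mertk knockdown and 198.5 ± 10.4 CPM in wildtype (SD, n = 4 each), and was among the few members with a positive value, 0.09.

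Of the 30 small subunit genes, 29 had a negative log2 fold change, with a median of -0.14. Rps28, a small protein near the exit of the mRNA channel, had 14.8, 11.8, 12.2 and 14.3 CPM in the libraries labelled Mertk knockdown, against 13.4, 22.4, 21.8 and 18.3 CPM in wildtype. As with Rpl39, wildtype replicate 1 fell inside the range of the libraries labelled Mertk knockdown while the other wildtype libraries did not. The log2 fold change was -0.52 with an SE of 0.16 and an edgeR adjusted p of 0.221, and the Rps28 row overlaps Kank3 in position. Rps29, which holds a zinc ion in the head of the small subunit, had 22.4, 15.8, 20.1 and 22.8 CPM in the libraries labelled Mertk knockdown, against 17.5, 33.7, 39.4 and 26.5 CPM in wildtype, and its log2 fold change was -0.53. Rps12, also a protein of the head, had 31.6, 26.5, 34.8 and 16.6 CPM in the libraries labelled Mertk knockdown, against 30.0, 50.1, 37.1 and 36.6 CPM in wildtype, and its log2 fold change was -0.49. Both groups overlapped through wildtype replicate 1, which was low for each of these genes. Rps2, which helps to form the mRNA entry channel, was the only small subunit gene with a positive value, 0.15. It averaged 437 ± 43.9 CPM in the libraries labelled Mertk knockdown and 395 ± 52.4 CPM in wildtype (SD, n = 4 each).

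**Figure D2:**
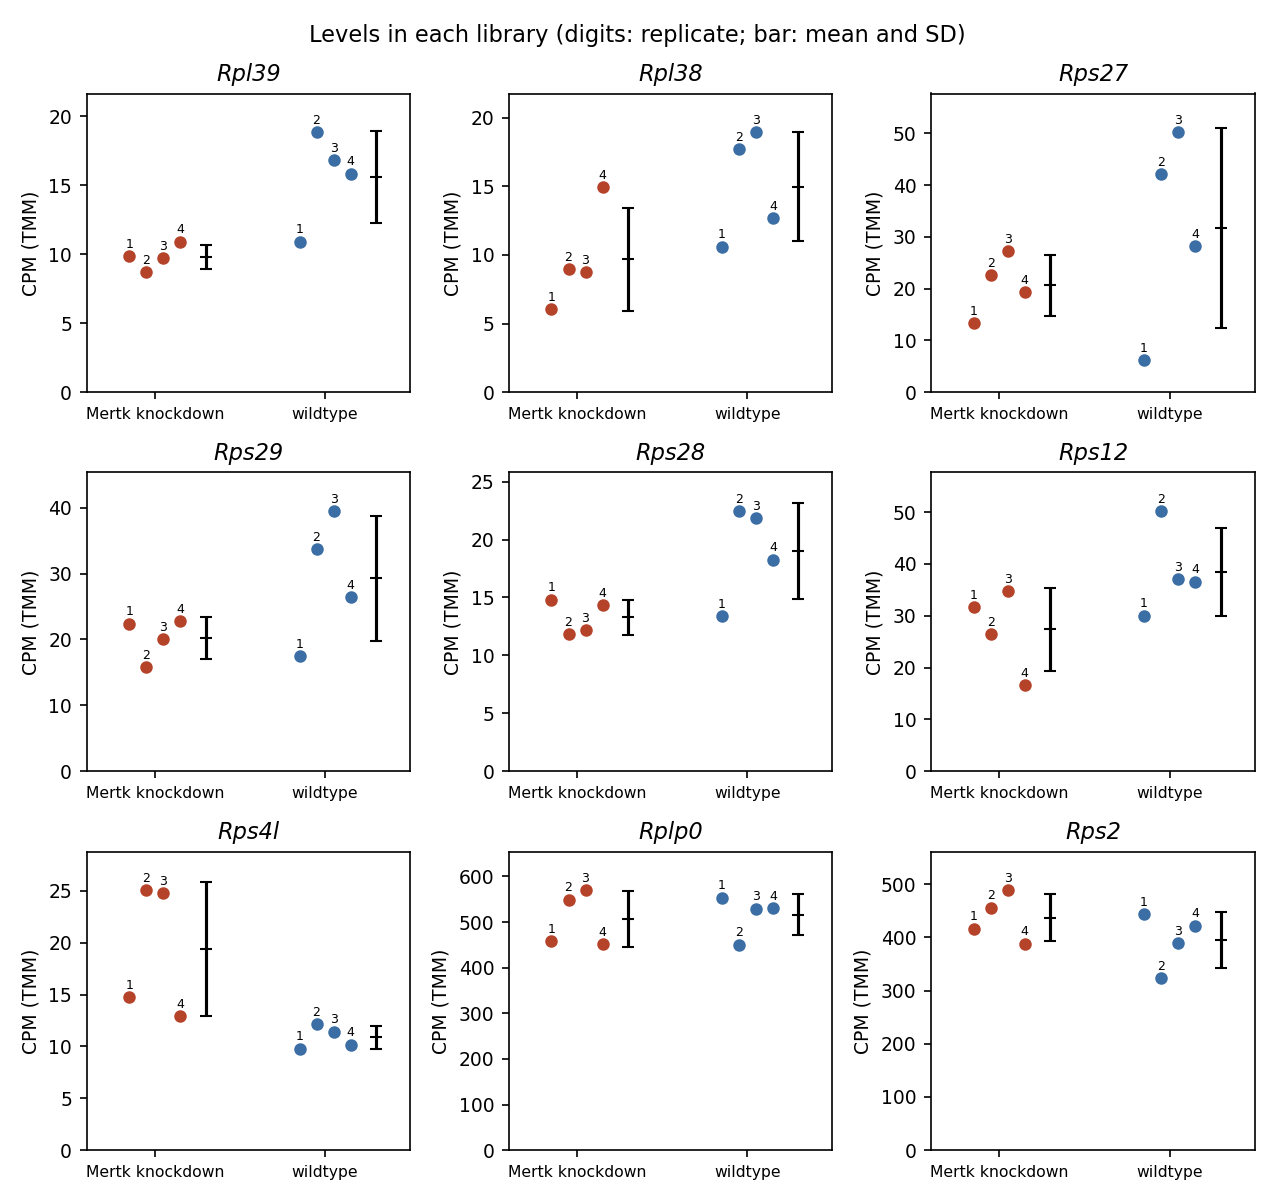
TMM-scaled CPM in each library (y axis, from 0) of 9 ribosomal protein genes, with libraries labelled Mertk knockdown in red on the left, wildtype libraries in blue on the right, digits giving the replicate, and bars the mean and SD of 4. In Rpl39, Rps29 and Rps28 wildtype replicate 1 lies level with the libraries labelled Mertk knockdown, and in Rps4l every one of those libraries lies above every wildtype library.

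The stalk genes, whose acidic proteins form the arm that receives the elongation factors, all had values below 0 and none was called. Rplp0, the base of the stalk and a common reference gene in quantitative PCR, was also the steadiest of the 3 between groups. It had 458, 549, 569 and 452 CPM in the libraries labelled Mertk knockdown, against 553.5, 450, 529 and 531 CPM in wildtype. Its log2 fold change was -0.02, with a 95% confidence interval from -0.28 to 0.23. Rplp1 averaged 87.6 ± 11.2 CPM in the libraries labelled Mertk knockdown and 104 ± 18.2 CPM in wildtype, a log2 fold change of -0.25. Rplp2 averaged 47.7 ± 5.06 CPM in the libraries labelled Mertk knockdown and 53.6 ± 7.78 CPM in wildtype, a log2 fold change of -0.17 (SD, n = 4 each).

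Levels between genes were set side by side as CPM per kilobase of coding sequence. The deposited FPKM values divide by the whole union of annotated exons, as judged from the length that each gene's count and FPKM imply: across 12681 genes the implied length was a median 1.10 times the M21 exon union, with 1.10 and 1.12 at the 5th and 95th percentiles. For the members this union was a median 2.37 times the length of the principal transcript, so FPKM places them low against genes with a single compact transcript. Per kilobase of coding sequence, the members with a coding length had a median of 190 CPM. Rpl41, which encodes the shortest of these proteins from 75 coding bases, was highest at 740 CPM per kilobase, and Rplp0 stood at 538. Rps2 followed at 473, Rps15 at 391 and Rps3a1 at 324. At the low end, Rpl22l1 stood at 9.17 CPM per kilobase, Rpl17 at 34.9, Rpl21 at 37.1, Rps27l at 43.8 and Rpl7l1 at 44.4. Rps15 averaged 162 ± 24.9 CPM in the libraries labelled Mertk knockdown and 178 ± 8.28 CPM in wildtype, and Rps3a1 252 ± 14.3 and 260 ± 10.8 CPM in the libraries labelled Mertk knockdown and in wildtype (SD, n = 4 each). Neither difference exceeded the spread between libraries.

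Among the 4 paralogues, Rpl3l had the largest SD of log2 CPM within groups, 0.543. Its spread lay mostly in the wildtype group, with an SD of 45.4 CPM there and 6.52 CPM in the libraries labelled Mertk knockdown. Rpl3l, which takes the place of Rpl3 in ribosomes of heart and skeletal muscle, had 77.5, 79.5, 87.1 and 77.9 FPKM in the libraries labelled Mertk knockdown, against 81.6, 26.2, 68.3 and 61.1 FPKM in wildtype. Rpl3, the general form, which lies next to the catalytic centre, had 30.1, 36.5, 34.8 and 36.4 FPKM in the libraries labelled Mertk knockdown, against 32.7, 63.9, 27.0 and 47.8 FPKM in wildtype. By FPKM, wildtype replicate 2 had more Rpl3 than Rpl3l and the other 7 libraries had less. The FPKM ratio of Rpl3l to Rpl3 was 2.57, 2.18, 2.51 and 2.14 in the libraries labelled Mertk knockdown, against 2.50, 0.410, 2.53 and 1.28 in wildtype. With counts per kilobase of coding sequence the ratio was lower in every library, at 1.32, 1.12, 1.28 and 1.10 in the libraries labelled Mertk knockdown, against 1.28, 0.210, 1.30 and 0.655 in wildtype. On that scale wildtype replicates 2 and 4 both had more Rpl3 than Rpl3l, while the difference between groups on the log2 scale is the same by construction. On the log2 scale the FPKM ratio averaged 1.23 ± 0.14 in the libraries labelled Mertk knockdown and 0.43 ± 1.24 in wildtype (SD, n = 4 each), a difference of 0.80 with an exact two-sided permutation p of 0.314, where 4 against 4 can give no p below 0.0286. Without wildtype replicate 2 the difference was 0.22. In the edgeR fit the log2 fold change was 0.41 for Rpl3l (SE 0.30, adjusted p 0.649) and -0.32 for Rpl3 (SE 0.21, adjusted p 0.5998), and the Rpl3 row overlaps Syngr1 in position.

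**Figure D3:**
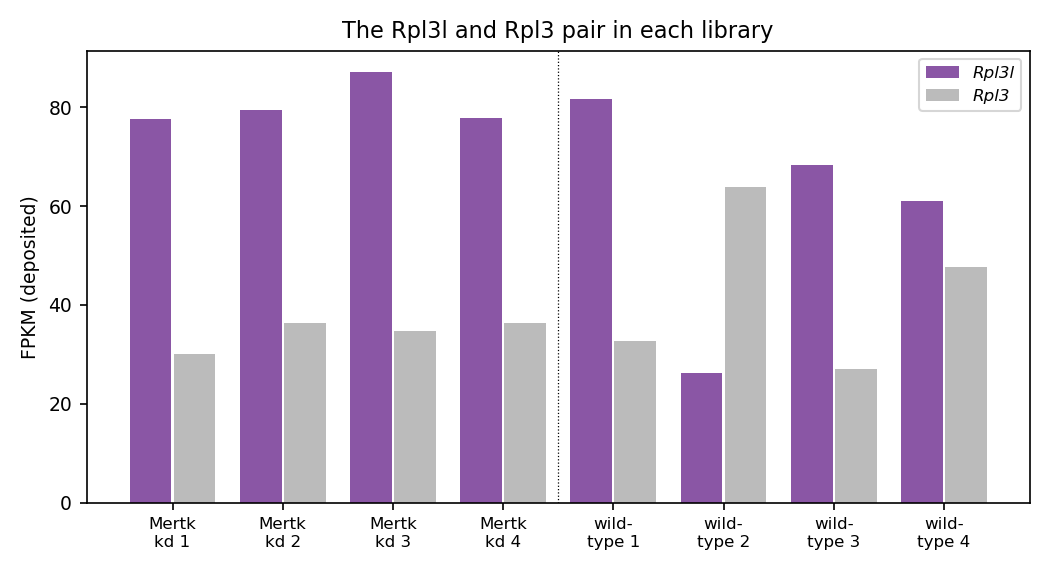
Deposited FPKM (y axis, from 0) of Rpl3l in purple and Rpl3 in grey in each library, with the libraries labelled Mertk knockdown on the left and wildtype on the right. Wildtype replicate 2 has 26.2 FPKM of Rpl3l and 63.9 of Rpl3, and in the other 7 libraries Rpl3l is the higher by FPKM; per kilobase of coding sequence, wildtype replicate 4 also has more Rpl3 (ratio 0.655).

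Wildtype replicate 2 also had the highest sums of fibroblast and atrial markers. The 8 fibroblast markers summed to 659 to 1199 CPM in the libraries labelled Mertk knockdown, and to 638, 2280, 598 and 1222 CPM in wildtype replicates 1 to 4. The 5 atrial markers summed to 179, 311, 467 and 1911 CPM in the libraries labelled Mertk knockdown, and to 307, 2311, 789 and 1055 CPM in wildtype replicates 1 to 4. Replicate 4 labelled Mertk knockdown had an atrial sum near that of wildtype replicate 2 and an Rpl3l to Rpl3 ratio of 2.14 by FPKM. None of these markers was listed at 0 in all libraries, and their part in the ratio was not tested.

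Of the other paralogues, none was called. Rpl22l1, which can replace Rpl22, averaged 2.95 ± 0.830 CPM in the libraries labelled Mertk knockdown and 3.76 ± 0.491 CPM in wildtype, a log2 fold change of -0.35, while Rpl22 averaged 72.8 ± 6.43 CPM in the libraries labelled Mertk knockdown and 86.3 ± 6.73 CPM in wildtype, a log2 fold change of -0.25 (SD, n = 4 each). Rps27l, a paralogue of Rps27 known as a target of p53, had a log2 fold change of -0.19. Rpl7l1, the paralogue of Rpl7, had a log2 fold change of 0.04, with 33.2 ± 3.54 CPM in the libraries labelled Mertk knockdown and 32.4 ± 2.72 CPM in wildtype. Rpl7 itself averaged 198 ± 7.16 CPM in the libraries labelled Mertk knockdown and 212 ± 17.7 CPM in wildtype, a log2 fold change of -0.10. Rpl10l and Rpl39l had no row under those names in the table used here.

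Rps4l, the member with the highest fold change, is annotated in M21 as a processed pseudogene of the Rps4 family (chromosome 6, 148354656 to 148355598, plus strand, in the deposited table). It had 14.8, 25.04, 24.8 and 12.9 CPM in the libraries labelled Mertk knockdown, against 9.78, 12.2, 11.4 and 10.2 CPM in wildtype. All 4 libraries labelled Mertk knockdown stood above all 4 wildtype libraries, replicates 2 and 3 by far the most. The log2 fold change was 0.83 with an SE of 0.22 and an edgeR adjusted p of 0.1503. The row lies inside Tmtc1, which is transcribed from the opposite strand and had 167, 175, 99.4 and 115 CPM in the libraries labelled Mertk knockdown, against 327.5, 252, 274 and 204 CPM in wildtype. Tmtc1 was lower in every library labelled Mertk knockdown (background 3.90%), with a log2 fold change of -0.93 and an edgeR adjusted p of 0.0936. DESeq2 called it lower (adjusted p 0.000528). Rps4x, the X-linked gene of the family, had 199.5 ± 11.6 CPM in the libraries labelled Mertk knockdown and 211 ± 11.4 CPM in wildtype (SD, n = 4 each), a log2 fold change of -0.08. Of the other pseudogenes, Rpl6l averaged 9.22 ± 1.56 CPM in the libraries labelled Mertk knockdown and 9.47 ± 0.950 CPM in wildtype, a log2 fold change of -0.04. The remaining 3 were lower in level: Rps3a3 averaged 1.21 ± 0.130 CPM in the libraries labelled Mertk knockdown and 1.58 ± 0.252 CPM in wildtype, Rps3a2 averaged 2.82 ± 0.608 CPM in the libraries labelled Mertk knockdown and 3.14 ± 0.374 CPM in wildtype, and Rpl32l averaged 0.215 ± 0.0861 CPM in the libraries labelled Mertk knockdown and 0.227 ± 0.0291 CPM in wildtype.

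Near-identical copies make some of the members uncertain, because the deposited counting could split their reads. Rps27 had 13.3, 22.6, 27.3 and 19.3 CPM in the libraries labelled Mertk knockdown, against 6.18, 42.2, 50.2 and 28.3 CPM in wildtype, while its retrogene Rps27rt had 15.4, 4.21, 7.00 and 14.7 CPM in the libraries labelled Mertk knockdown, against 30.1, 2.46, 8.71 and 6.18 CPM in wildtype. Wildtype replicate 1 was lowest for Rps27 and highest for Rps27rt. Their sum spread less, at 31.0 ± 3.79 CPM in the libraries labelled Mertk knockdown and 43.6 ± 11.2 CPM in wildtype (SD, n = 4 each). Rpl7a, named after its values were seen, had 32.2, 51.3, 69.1 and 30.8 CPM in the libraries labelled Mertk knockdown, against 75.2, 29.6, 58.7 and 59.6 CPM in wildtype. With its 7 -ps rows added, the sums were 130 ± 20.3 CPM in the libraries labelled Mertk knockdown and 133 ± 13.8 CPM in wildtype. For Rpl17, which lies near the exit tunnel, the 8 -ps rows together held more than the gene itself, at 113.5 ± 19.7 CPM against 19.9 ± 8.39 CPM in the libraries labelled Mertk knockdown and 129 ± 8.99 CPM against 18.6 ± 5.18 CPM in wildtype. In all, 231 rows of the table carry -ps names of ribosomal protein genes, 121 of them tested, and together they held 574 to 704 CPM in the libraries labelled Mertk knockdown and 604 to 693 CPM in wildtype.

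The members with the lowest fold changes were mostly those with the shortest mRNAs. By the length of the principal transcript in M21, the median log2 fold change was -0.49 for the 8 members of up to 450 bases, -0.18 for the 22 above that and up to 600 bases, -0.13 for the 18 of up to 800 bases and -0.10 for the 32 over 800 bases. The 8 shortest were Rps28, Rpl38, Rps27, Rpl36, Rps29, Rps21, Rplp2 and Rpl41, and all 8 values were below 0. The order of the other 3 classes does not rest on that small class. Spearman's rho between transcript length and log2 fold change was 0.468 across the 80 coding members, and 0.612 with coding length, as a description across genes that share the same 8 libraries. The other tested genes showed the same order of medians at a smaller size: -0.13 for 76 genes of up to 450 bases, -0.08 for 168 of up to 600, -0.01 for 361 of up to 800 and 0.01 for 13881 over 800, with a rho of 0.0465 across 14486 genes.

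The libraries that set this order are seen in the deviation of each class from its mean over the 8 libraries. For the members of up to 450 bases, the median deviation on the log2 scale was -0.22, -0.39, -0.10 and 0.00 in replicates 1 to 4 labelled Mertk knockdown, and -0.24, 0.47, 0.45 and 0.22 in wildtype replicates 1 to 4. Wildtype replicate 1 stood with the libraries labelled Mertk knockdown, and the other 3 wildtype libraries stood above all of these. For the members over 800 bases the deviations were -0.09, -0.08, 0.08 and -0.10 in the libraries labelled Mertk knockdown and -0.02, 0.05, 0.07 and 0.08 in wildtype.

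**Figure D4:**
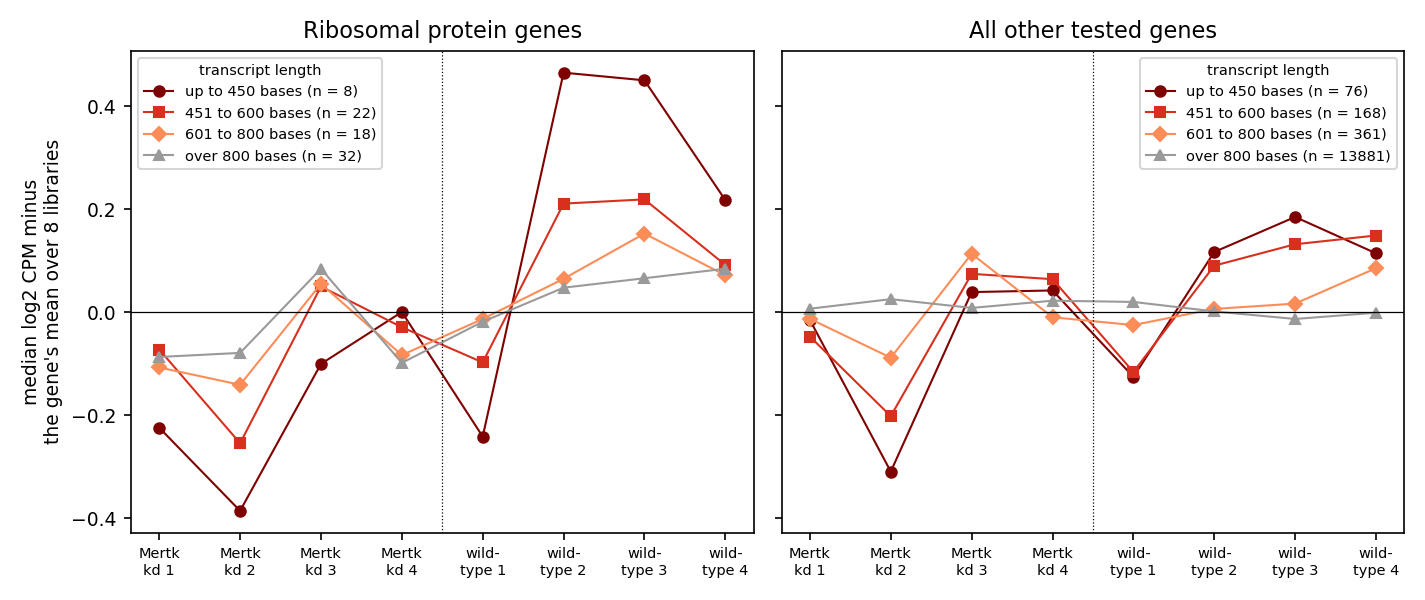
Median over genes of log2 CPM minus the gene's mean over the 8 libraries (y axis) in each library, for ribosomal protein genes on the left and all other tested genes on the right, by transcript length class, with libraries labelled Mertk knockdown (Mertk kd) before wildtype. The shortest ribosomal protein genes run from -0.39 in replicate 2 labelled Mertk knockdown to 0.47 in wildtype replicate 2, with wildtype replicate 1 at -0.24.

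Split by hepatocyte transcripts, the downward shift was not seen against wildtype replicate 1. Within the 5 libraries that carry these transcripts (the 4 labelled Mertk knockdown and wildtype replicate 1, whose spread is assumed to be that of the others), the members' median was 0.00072, against 0.03 for all genes. There, 42 of 85 members (49.4%) had negative values, against 46.8% of all genes, and edgeR called no member (background 0.212%). At an unadjusted p under 0.05 these 5 libraries gave 0 members lower (background 3.70%) and 1 higher (background 5.27%). The median of the 8 shortest members was 0.09 there, and rho with transcript length was -0.212. The length order also turned among the other tested genes, with medians in these 5 libraries of 0.15 up to 450 bases and 0.02 over 800 bases. In the 7 libraries without wildtype replicate 1 those medians were -0.20 and 0.02, and that of the 8 shortest members was -0.58. Without wildtype replicate 1, the median of the 85 members was -0.19, against 0.01 for all genes, and 76 of 85 were below 0. That fit called 2 members lower, Rpl39, at a log2 fold change of -0.81 (SE 0.12) with an edgeR adjusted p of 0.0125, and Rps28, at -0.65 (SE 0.13) with an edgeR adjusted p of 0.0425, against a background of 1.45% called with 0.549% lower and 0.906% higher. At an unadjusted p under 0.05 it gave 28 members lower (background 6.17%). No difference between these 2 comparisons was tested. Group and hepatocyte transcripts cannot be told apart in the 7 libraries without wildtype replicate 1, since all 4 libraries of the Mertk knockdown group carry them and the 3 remaining wildtype libraries had at most 13.1 CPM of the markers.

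**Figure D5:**
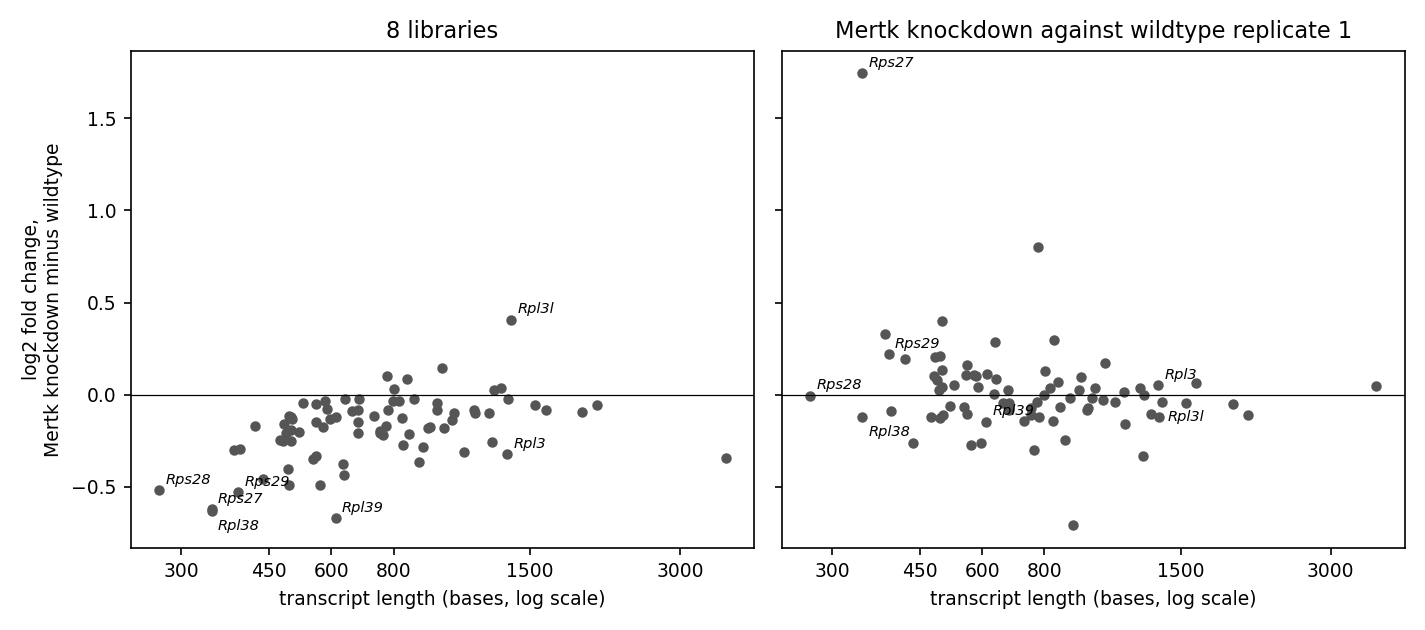
Log2 fold change (Mertk knockdown minus wildtype, y axis) of the 80 coding ribosomal protein genes against transcript length in bases (log x axis), for all 8 libraries on the left and for the 4 libraries labelled Mertk knockdown against wildtype replicate 1 on the right. On the left the short genes lie lowest (rho 0.468), and on the right they do not (rho -0.212).

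Ribosomal proteins whose genes fall outside the naming rule were counted separately. None of the 4 (Fau, Rpsa, Rpl36al and Rps27rt) was called by edgeR, and 3 were below 0. Their median was -0.17, which was -0.01 within the 5 libraries with hepatocyte transcripts and -0.11 without wildtype replicate 1. It lies between the values of Rpl36al (-0.14) and of the retrogene Rps27rt (-0.20, SE 0.78), whose reads may be split with Rps27. Fau, which encodes RPS30 fused to a ubiquitin-like protein, had 34.7, 33.8, 39.9 and 38.3 CPM in the libraries labelled Mertk knockdown, against 40.5, 53.5, 51.6 and 49.0 CPM in wildtype. The groups did not overlap, as held for 1 of the 4 genes (background 3.90% lower). The log2 fold change of -0.41 with an SE of 0.11 had an edgeR adjusted p of 0.146. Fau was the only gene of the 4 with an unadjusted p under 0.05. DESeq2 called it, with an adjusted p of 0.0426. Rpsa, a small subunit protein also known as a laminin receptor, averaged 407 ± 52.9 CPM in the libraries labelled Mertk knockdown and 393 ± 25.2 CPM in wildtype (SD, n = 4 each). Rpl36al averaged 23.5 ± 3.38 CPM in the libraries labelled Mertk knockdown and 25.9 ± 4.79 CPM in wildtype.

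The mitochondrial ribosomal proteins, which serve the separate ribosome inside mitochondria, lay on the other side of 0. Of their 78 genes none was called by edgeR, 64 were above 0 and the median was 0.13. Before adjustment, 17 had p under 0.05 and a higher level (background 6.11%) and 1 a lower level (background 6.32%), and DESeq2 called Mrpl3 higher. Mrpl3 averaged 83.4 ± 6.28 CPM in the libraries labelled Mertk knockdown and 64.5 ± 5.49 CPM in wildtype, a log2 fold change of 0.37 with an edgeR adjusted p of 0.138. Mrpl42 averaged 149 ± 9.51 CPM in the libraries labelled Mertk knockdown and 121 ± 8.09 CPM in wildtype, a log2 fold change of 0.30 with an edgeR adjusted p of 0.197 (SD, n = 4 each). Within the 5 libraries with hepatocyte transcripts their median was 0.19, while that of the cytosolic genes was 0.00072. These medians are descriptions, and the difference between the 2 sets was not tested.

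Other genes of ribosome making and translation gave no edgeR or limma calls either, and DESeq2 called 5 of them (background 1.65% higher and 2.07% lower): Dkc1, Eif4e and Mycn higher, and Eef2k and Eif4ebp1 lower. Of 30 ribosome biogenesis factors, 13 were above and 17 below 0 (median -0.05), with 1 in each direction at an unadjusted p under 0.05, where all tested genes gave 6.11% higher and 6.32% lower. Dkc1, the pseudouridine synthase of ribosomal RNA, had 14.8, 14.4, 16.8 and 16.2 CPM in the libraries labelled Mertk knockdown, against 12.3, 11.4, 11.2 and 12.0 CPM in wildtype, and Ncl, the nucleolar protein nucleolin, had 157, 154, 148 and 155 CPM in the libraries labelled Mertk knockdown, against 196, 179, 183 and 181 CPM in wildtype. Neither pair of groups overlapped, as held for 4 of the 30 factors (background 8.07%: 4.18% higher and 3.90% lower). The edgeR adjusted p was 0.107 for Dkc1 and 0.204 for Ncl, which were named for having the smallest p in this list. Of 11 tested genes of RNA polymerase I and its factors, 7 were above 0 (median 0.03, and -0.12 within the 5 libraries with hepatocyte transcripts) and none had an unadjusted p under 0.05. Polr1b, a core subunit, averaged 13.5 ± 1.16 CPM in the libraries labelled Mertk knockdown and 11.1 ± 1.85 CPM in wildtype, and Ubtf, which opens ribosomal DNA for transcription, averaged 59.5 ± 8.10 CPM in the libraries labelled Mertk knockdown and 67.9 ± 3.40 CPM in wildtype (SD, n = 4 each).

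Of 29 translation initiation factors, 8 were above and 21 below 0 (median -0.07), with 1 higher (background 6.11%) and 2 lower (background 6.32%) at an unadjusted p under 0.05. Eif4e, the cap-binding protein, averaged 146 ± 7.86 CPM in the libraries labelled Mertk knockdown and 117 ± 8.78 CPM in wildtype, a log2 fold change of 0.32 with an edgeR adjusted p of 0.180. Of 9 elongation and termination factors, 5 were below 0 (median -0.02) and 2 were lower at an unadjusted p under 0.05 (background 6.32%). Among these, Eef2k, the kinase that inhibits elongation factor Eef2, had a log2 fold change of -0.40 with an edgeR adjusted p of 0.0937. Genes other than ribosomal proteins whose mRNAs carry a TOP motif numbered 15, of which 11 were below 0 (median -0.13, and -0.15 within the 5 libraries with hepatocyte transcripts). Of these 15, 5 were lower at an unadjusted p under 0.05 (background 6.32%). The lists are not separate, since Eif4b is also counted among the initiation factors, and Eef1a1 and Eef2 among the elongation factors. Eef1a1, the factor that brings aminoacyl-tRNA to the ribosome, had 670, 778, 830 and 831 CPM in the libraries labelled Mertk knockdown, against 952, 1149, 845 and 963 CPM in wildtype, and its log2 fold change was -0.33 with an edgeR adjusted p of 0.303. Eif4b, a helper of the cap-binding complex, had a log2 fold change of -0.37, with an edgeR adjusted p of 0.221.

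Among 18 regulators of mTORC1 and TOP mRNAs, 9 were above and 9 below 0, with 1 higher (background 6.11%) and 3 lower (background 6.32%) at an unadjusted p under 0.05. Eif4ebp1, the repressor of cap-dependent initiation that mTORC1 inactivates, had 33.0, 41.7, 33.3 and 32.6 CPM in the libraries labelled Mertk knockdown, against 53.0, 48.1, 55.4 and 43.4 CPM in wildtype. Its groups did not overlap, as held for 3 of the 18 regulators (background 8.07%), and the log2 fold change of -0.51 had an edgeR adjusted p of 0.0909. Mycn, a MYC-family activator of ribosome synthesis, was low throughout, with 2.59, 2.92, 6.05 and 3.90 CPM in the libraries labelled Mertk knockdown, against 1.97, 1.09, 1.02 and 0.584 CPM in wildtype, a log2 fold change of 1.73 with an edgeR adjusted p of 0.0998. Larp1, which binds TOP mRNAs, and Mtor, the kinase of the complex, had log2 fold changes of 0.01 and 0.13. Of 10 genes of ribosome quality control, 6 were above 0 (median 0.01) and none had an unadjusted p under 0.05. Hbs1l, which rescues stalled ribosomes, and Eif2ak4, the kinase GCN2 that senses uncharged tRNA, had log2 fold changes of 0.18 and -0.18.

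Markers of other cell types were measured in the same libraries. The 8 macrophage markers all had log2 fold changes below 0, with a median of -0.40, and summed to 216 to 264 CPM in the libraries labelled Mertk knockdown and 248 to 378 CPM in wildtype, while the 7 endothelial markers were all above 0 (median 0.30). Against wildtype replicate 1 alone, the macrophage median was 0.0063 and the endothelial median 0.19, and without wildtype replicate 1 they were -0.51 and 0.35. edgeR called none of these markers, with 3 macrophage markers lower (background 6.32%) and 4 endothelial markers higher (background 6.11%) at an unadjusted p under 0.05. DESeq2 called C1qb lower (background 2.07%) and Cdh5 and Kdr higher (background 1.65%). Of the 8 cardiomyocyte markers, 7 were above 0 and 1 below (median 0.18). edgeR called none of the 8, with 2 higher at an unadjusted p under 0.05 (background 6.11%), and DESeq2 called Myh6 higher. The 5 erythroid markers were all above 0 (median 0.53), with 0 at an unadjusted p under 0.05. None of the markers in this paragraph was listed at 0 in all libraries, and their part in the ribosomal protein levels was not tested.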

How the data were processed

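The deposited table gives per gene the raw count and the FPKM value of each of the 8 libraries, 1 column a library, per the file headers. The authors made both from paired-end reads of dUTP-marked, oligo(dT)-selected libraries, per the labels' protocols. The submitters' processing notes name HISAT2 2.2.1, cutadapt 1.9 and StringTie 2.1.6, as well as edgeR and DESeq2, and give mm10 as the build, without stating what each did. The annotation release and the strand setting of the counting are not given in the sources used here, so 16 members whose rows overlap another gene with a mean of at least 100 counts may share reads with it.

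Counts were tested in R 4.3.3 by the two-sided quasi-likelihood test of edgeR 4.0.16 (glmQLFTest after a robust glmQLFit) on the whole table, with TMM factors and filterByExpr, adjusted by Benjamini-Hochberg over all 17787 tested genes and called under 0.05. The SE is the size of the log2 fold change divided by the square root of F. All log2 fold changes are Mertk knockdown minus wildtype. Alternatives were DESeq2 1.42.0, limma 3.58.1 on log2(FPKM + 1) and log2(FPKM + 0.1), other scalings, no filter, a replicate block, -ps rows summed into their genes, a hepatocyte marker covariate, the 5 libraries with hepatocyte transcripts, and each library left out. Summing retrogenes and leaving out pseudogenes were added after the data were seen. The fit was tested on simulated counts, where it called 12.3% of genes changed 1.5-fold, 40.9% of those changed 2-fold and 69.8% of those changed 4-fold. Changes below 1.5-fold, such as those of most members, were not simulated, and the changed genes were drawn from all tested genes. How often such changes would be called in the members was therefore not measured, and an uncalled member is not shown to be unchanged.

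The members, gene lists and tests were chosen with earlier results of these data known. Named members are the called ones, the 6 with the largest and the 6 with the smallest fold changes, the 4 with the highest and 4 with the lowest FPKM, the stalk genes and the paralogues with their partners. From each other list the 2 genes with the smallest p are named, and others were chosen after their values were seen. A further gene outside the naming rule is not reported here or counted in that list. Libraries of a group differed beyond sampling noise (the chi-square was at least 37.89 per degree of freedom). A floor of 3 counts in the shallowest library is 0.0506 CPM and covers counting error only.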

Additional observations from a re-analysis of the deposited data

Results flagged for a closer look

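Within groups of 4, 6 of 102 searched groups of values held a library that lay far from the other 3 for its group's range, close to the 1 in 20 that chance gives. Among the members these were Rpl7l1, at 38.5 CPM in replicate 1 labelled Mertk knockdown against 31.1 to 31.9 CPM in the other 3 (gap over range 0.889), Rplp2, at 42.0 CPM in wildtype replicate 1 against 56.03 to 58.4 CPM (0.857), and Rps27l, at 7.85 CPM in wildtype replicate 1 against 12.9 to 13.2 CPM (0.941). Among the other named genes, Eif4ebp1 stood at 41.7 CPM in replicate 2 labelled Mertk knockdown against 32.6 to 33.3 CPM (0.914). Ubtf stood at 62.9 CPM in wildtype replicate 4 against 69.3 to 70.1 CPM (0.880), and Mrpl3 at 72.6 CPM in the same library against 61.0 to 62.9 CPM (0.843).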

How the results depend on the processing

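Depth limits sparse rows such as Rpl32l, which had as few as 9 counts in a library. The members' median stayed within the spread between libraries under DESeq2, both limma fits, the other scalings, no filter, the replicate block, summed -ps rows, summed retrogenes and coding members alone, with 77 or 78 of 85 below 0 (73 of the 80 coding members). Leaving out each library gave -0.21 to -0.12. It was -0.0297 once the hepatocyte covariate was in the model, and 0.00072 in the subset of 5 libraries that carry such transcripts, and the cause was not tested.

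Members called numbered 1 higher and 1 lower with DESeq2, and 0 to 2 lower when a library was left out, the 2 without wildtype replicate 1. Over all genes the calls were 49 higher and 66 lower. DESeq2 gave 268 and 336, limma 27 and 43 at a pseudocount of 1 and 29 and 40 at 0.1, the covariate 4 and 9, the 5 libraries 19 and 23, and leaving out libraries 15 to 165 and 29 to 100. The replicate block gave 5 and 19 and called no member. For the log2 ratio of Rpl3l to Rpl3 its difference is 0.80 by construction, with an exact two-sided sign-flip p of 0.25, where 4 pairs can give no p below 0.125. The correlations of same-numbered libraries were 0.0615, 6.3e-05, -0.00646 and 0.181, over 0.1 in 1 of 4 pairs, and 2 of the 4 libraries labelled Mertk knockdown correlated best with the wildtype library of their own number, so the numbers were not taken to pair the libraries. In the lists, DESeq2 called 1 mitochondrial ribosomal protein, 1 gene outside the naming rule, 1 biogenesis factor, 1 initiation factor, 1 elongation factor and 2 mTORC1 regulators, and leaving out libraries gave 0 to 1 in the list outside the naming rule and 0 to 1 among mTORC1 regulators, in both cases the 1 without wildtype replicate 1 (Fau and Mycn).

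Directions that turned were all of uncalled genes. With the hepatocyte covariate the log2 fold changes were 1.27 for Rps27, -0.0923 for Rpl7l1, -0.014 for Rpl3l, 0.11 for Rpl32l, 0.12 for Rps3a2, 0.080 for Rplp1, 0.14 for Rplp2, 0.33 for Rps27l, 0.088 for Rpl3, 0.21 for Rpl36al and -0.13 for Larp1. Within the 5 libraries they were 1.74 for Rps27, 0.22 for Rps29, -0.10 for Rpl7l1, -0.015 for Rps2, -0.041 for Rpl3l, 0.19 for Rpl32l, 0.11 for Rps3a2, 0.14 for Rplp1, 0.19 for Rplp2, 0.40 for Rps27l, 0.052 for Rpl3, 0.28 for Rpl36al and -0.072 for Larp1. Rps27rt was 0.21 and 0.18 by limma at pseudocounts of 0.1 and 1 and 0.18 with the block, and Rpl17 was -0.15 with its -ps rows. Leaving out libraries gave -0.042 to 0.089 for Rpl7l1, -0.23 to 0.24 for Rpl17, -0.085 to 0.032 for Rplp0, -0.32 to 0.082 for Rpl32l, -0.53 to 0.84 for Rps27rt, -0.017 to 0.13 for Rpsa and -0.050 to 0.096 for Larp1.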
